A study of Mus musculus with 18 samples.

Results

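Matrix metalloproteinases and their tissue inhibitors were followed here through 8 genes, Mmp8, Mmp9, Mmp12, Mmp13, Mmp14, Mmp19, Timp1 and Timp2, in mouse bone marrow-derived macrophages with and without IRF5, LPS and defactinib. The members were the rows of the deposited gene count table whose Ensembl identifiers carry these symbols, 8 of 50600 gene rows. All 8 passed the filter on low counts, which 15663 genes passed.

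Matrix metalloproteinases are zinc-dependent endopeptidases that are mostly secreted as inactive proenzymes and cut collagens, elastin, gelatin and many non-matrix proteins once their propeptide is removed. The tissue inhibitors of metalloproteinases (TIMPs) bind the active site and block it. Macrophages are a classical source of the elastase MMP12, and inflammatory stimuli such as LPS, a bacterial ligand of TLR4, are known to change which of these genes myeloid cells transcribe.

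The study asked how defactinib, an inhibitor of the kinases FAK and PYK2, alters LPS-induced transcription with and without IRF5, a transcription factor that acts downstream of TLR4. Marrow from WT mice and from IRF5 KO mice was cultured for 8 days in GM-CSF. The LPS groups received DMSO or 3.5 µM defactinib for 1 h and then LPS at 100 ng/ml for 2 h. Each genotype thus gave 3 groups, called unstimulated, LPS DMSO and LPS defactinib below, and each of the 6 groups had 3 libraries named as biological replicates. Unstimulated cells were described as given DMSO in the labels and as untreated in the column names, so the vehicle of that group is unsettled. The labels gave no age, strain or source of the marrow donors, and no group received defactinib without LPS.

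Libraries held 39282181 to 61949143 counted read pairs. Irf5 itself, summed over its exons, was at 213 to 650.3 CPM (counts scaled to library size with TMM) in the WT libraries and at 335 to 435 CPM in those of IRF5 KO, so it was not lost. A gene-level sum cannot tell deleted exons from kept ones, so Irf5 did not check the genotype labels, and IRF5 KO below means the libraries labelled so. Xist was at most at 0.0508 CPM and the Y-linked Ddx3y at 43.1 CPM or more in every library. The Ddx3y ranges of the genotypes overlapped in none of the 3 treatments, at 62.5 to 66.4 CPM in IRF5 KO beside 78.0 to 90.7 CPM in WT without stimulation, 43.1 to 74.8 beside 95.3 to 102 CPM after LPS with DMSO and 44.9 to 50.1 beside 63.6 to 82.3 CPM after LPS with defactinib. The macrophage markers summed to 9376 to 18878 CPM, led by Lyz2, Csf1r and Itgam. Replicate 3 of IRF5 KO LPS DMSO stood apart, with a chi-square per gene of 441 and 425 against replicates 1 and 2, where other pairs within a group gave 2.33 to 183. Replicate 3 of WT LPS defactinib was the next most distant, at 140.3 and 183, and alone held the fibroblast genes Dcn and Lum above 1 CPM (5.22 and 1.36).

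Mmp13, Mmp12 and Mmp8 lie in this order on chromosome 9 within 295972 bases of mm10 and on the + strand, in the cluster that also holds other secreted metalloproteinases. Mmp13 (ENSMUSG00000050578) spans chr9:7272514-7283331, Mmp12 (ENSMUSG00000049723) chr9:7344381-7369499 and Mmp8 (ENSMUSG00000005800) chr9:7558456-7568485. These neighbours had 3 different patterns in the counts, described below. Their upstream sequences are therefore shown with that of Timp1 (ENSMUSG00000001131, chrX:20870166-20874735), the inhibitor gene with the largest response. Each is the 250 bases before a RefSeq transcript start (GRCm38.p6, + strand, 5′ to 3′), and capitals mark matches on either strand to TGANTCA, the AP-1 consensus, to GAAA, any 2 bases and GAAA, a core of the element bound by IRF factors, or to GGGA, any 4 bases and CC, a κB core. The Mmp12 sequence belongs to the downstream of its 2 listed starts.
Mmp13 chr9:7272264-7272513: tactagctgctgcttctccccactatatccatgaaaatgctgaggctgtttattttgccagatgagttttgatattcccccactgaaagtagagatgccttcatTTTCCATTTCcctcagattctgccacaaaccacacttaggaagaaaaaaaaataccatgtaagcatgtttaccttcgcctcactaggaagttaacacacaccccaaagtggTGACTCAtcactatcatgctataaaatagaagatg
Mmp12 chr9:7347124-7347373: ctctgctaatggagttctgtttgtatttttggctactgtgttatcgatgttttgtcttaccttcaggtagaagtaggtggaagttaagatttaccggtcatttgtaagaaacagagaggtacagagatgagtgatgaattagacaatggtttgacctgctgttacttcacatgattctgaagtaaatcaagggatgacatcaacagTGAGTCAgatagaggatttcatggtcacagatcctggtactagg
Mmp8 chr9:7558179-7558428: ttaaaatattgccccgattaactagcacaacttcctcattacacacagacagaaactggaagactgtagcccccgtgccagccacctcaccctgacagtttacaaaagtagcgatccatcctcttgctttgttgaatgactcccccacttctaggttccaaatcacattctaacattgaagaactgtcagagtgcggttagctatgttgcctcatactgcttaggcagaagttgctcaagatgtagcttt
Timp1 chrX:20869916-20870165: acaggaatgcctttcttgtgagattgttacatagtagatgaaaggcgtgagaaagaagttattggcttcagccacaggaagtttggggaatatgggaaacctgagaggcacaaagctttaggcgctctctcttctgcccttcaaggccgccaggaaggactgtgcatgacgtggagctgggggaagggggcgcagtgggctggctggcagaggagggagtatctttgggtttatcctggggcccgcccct
Mmp13 held TGACTCA from 35 bases before its start and TTTCCATTTC, a reverse-strand match to the IRF motif, from 146 bases before it. Mmp12 held TGAGTCA from 44 bases before this start. Mmp8, Timp1, Mmp14, Timp2 and the upstream Mmp12 start held none of the 3 motifs, and κB was matched in none of the 7 windows. Of the 250 bases of the Timp2 window 203 lie in annotated exons of Timp2 itself, so that window is mostly not upstream sequence. In the upstream Mmp12 window 16 bases lie in Mmp12 exons. Among the 250-base windows of all 32851 listed promoters, 6.75% held the AP-1 motif, 2.98% the IRF motif and 17.6% the κB motif. Of the 8 members 6 were listed, without Mmp9 and Mmp19. The remaining members are Mmp9 (ENSMUSG00000017737, chr2:164940780-164955850), Mmp14 (ENSMUSG00000000957, chr14:54431612-54441265), Mmp19 (ENSMUSG00000025355, chr10:128790910-128800824), all on the + strand, and Timp2 (ENSMUSG00000017466, chr11:118301069-118355740, - strand). All 8 are protein-coding.

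Mmp12, the macrophage elastase, was by far the most abundant member. It took 1.02% to 1.77% of all counted pairs and ranked 14th to 33rd of all genes by RPKM, read pairs scaled by exon length and library size, in each library. Between genes levels were compared only as RPKM. In WT unstimulated cells the order was Mmp12 (2061 ± 52.5 RPKM, SD, n = 3), Mmp14 (104 ± 3.19), Mmp8 (78.6 ± 7.75), Mmp19 (40.5 ± 4.62), Timp1 (38.1 ± 3.56), Mmp13 (27.9 ± 1.24), Timp2 (14.6 ± 0.685) and Mmp9 (2.27 ± 0.359). Of these neighbours in the order, the ranges of Mmp19 and Timp1 overlapped. In IRF5 KO unstimulated cells Mmp12 was again first (1489 ± 239 RPKM), Mmp8 was second (575 ± 141), and Timp1 (14.6 ± 0.861) and Timp2 (6.65 ± 0.922) were the lowest, below Mmp9 (24.8 ± 4.03). There, the ranges of Mmp19 and Mmp13 overlapped. In WT LPS DMSO the ranges from Mmp14 (156 ± 9.02 RPKM) through Timp1 (118 ± 34.9) and Mmp13 (94.4, range 83.9 to 106) to Mmp8 (82.7 ± 13.9) each overlapped the next. Among the 6 groups Mmp8 was highest in IRF5 KO LPS defactinib, at 1028 ± 37.3 RPKM.

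**Figure D1:**
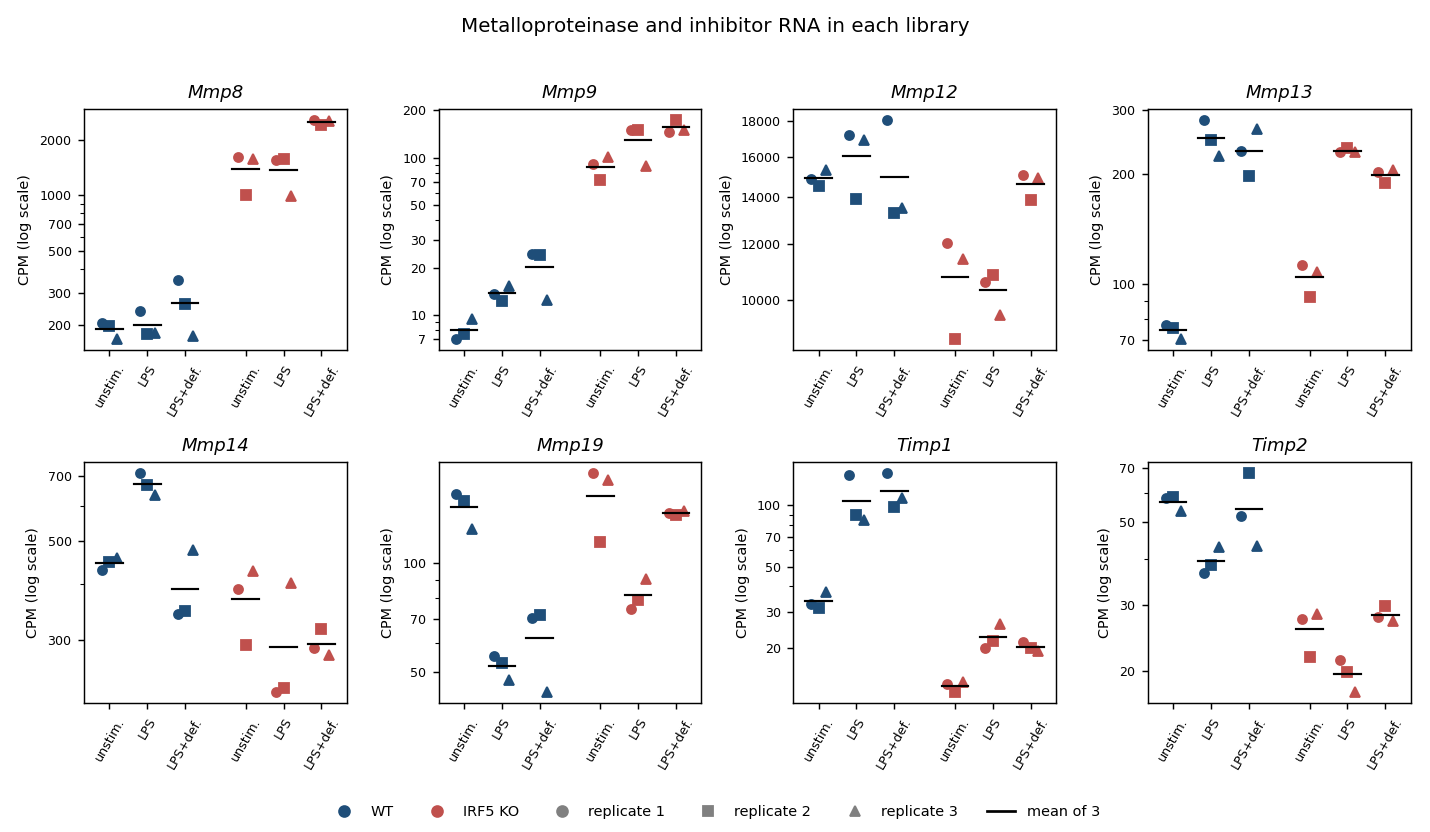
Level of each of the 8 genes in CPM (log axis) in every library, with WT in blue, IRF5 KO in red, the replicate number as the symbol and the group mean of 3 as a bar. Mmp8 and Mmp9 lie higher in all IRF5 KO libraries than in any WT library, Timp1 and Timp2 higher in WT within each treatment, and Mmp13 rises with LPS in both genotypes.

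The first question was how the genotypes differed. Mmp8 and Mmp9, the neutrophil collagenase and gelatinase B, were several-fold higher in IRF5 KO cells than in WT cells with or without LPS, and Timp1 and Timp2 were lower. A gene was called when its Benjamini-Hochberg adjusted p in edgeR's quasi-likelihood test was under 0.05 and its change exceeded 2-fold. Without stimulation 4 of the 8 members were called between WT and IRF5 KO, where 7.31% of the 15663 tested genes were. After LPS with DMSO 5 were called, against 25.8% of genes, and after LPS with defactinib 4, against 17.3%.

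Mmp8 was at 205, 198 and 169 CPM in WT unstimulated replicates 1 to 3 and at 1619.5, 1001 and 1563 CPM in IRF5 KO unstimulated. The groups did not overlap, and the lowest IRF5 KO value was replicate 2. The difference, WT minus IRF5 KO, was -2.87 ± 0.25 on the log2 scale (SE, adjusted p = 1.47e-06), or 7.31-fold higher in IRF5 KO. In LPS with DMSO Mmp8 was at 239.5, 180.2 and 182 CPM in WT and at 1549, 1568 and 992 CPM in IRF5 KO, a difference of -2.77 ± 0.25 (adjusted p = 8.14e-07). After LPS with defactinib it was at 352, 261 and 175 CPM in WT and at 2563, 2391 and 2526 CPM in IRF5 KO. That difference was -3.25 ± 0.26 (adjusted p = 1.37e-07), 9.49-fold higher in IRF5 KO.

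Mmp9, which cuts denatured collagen and type IV collagen, was the lowest member in WT and had the largest genotype difference of the 8 without stimulation. It was at 7.06, 7.56 and 9.46 CPM in WT unstimulated and at 90.8, 72.2 and 100.2 CPM in IRF5 KO unstimulated. The difference was -3.45 ± 0.26 (adjusted p = 3.30e-07), or 10.9-fold higher in IRF5 KO. With LPS and DMSO the values were 13.6, 12.3 and 15.3 CPM in WT and 150.1, 151 and 88.7 CPM in IRF5 KO. Every IRF5 KO library again exceeded every WT library, with replicate 3 of IRF5 KO the lowest. The difference was -3.24 ± 0.26 (adjusted p = 2.26e-07), and -3.45 without that replicate. After LPS with defactinib Mmp9 was at 24.3, 23.9 and 12.5 CPM in WT and at 146, 175 and 149.9 CPM in IRF5 KO (-2.96 ± 0.25, adjusted p = 2.98e-07).

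Both genes are stored products of neutrophils, so neutrophil markers were set beside them. In bulk RNA fewer cells of a type and less RNA per cell cannot be told apart. The 10 markers summed to 62.9 to 85.7 CPM in WT unstimulated and 76.3 to 89.6 CPM in IRF5 KO unstimulated, to 122 to 237 and 149 to 186 CPM after LPS with DMSO, and to 117 to 168 and 147 to 171 CPM after LPS with defactinib. S100a8 and S100a9 led the list, and neither was called between the genotypes in any of the 3 treatments. Of the 9 markers tested, 2 were called higher in IRF5 KO without stimulation, 3 after LPS with DMSO and 0 after LPS with defactinib. Ly6g, a defining marker, did not exceed 1.09 CPM in any library, and Mpo and Elane, both granule enzymes, did not exceed 0.407 and 0.437 CPM. The genotype ranges of the summed markers, which S100a8 and S100a9 dominate, overlapped in all 3 treatments. The markers called higher in IRF5 KO moved the same way as Mmp8 and Mmp9. These were Ly6g (-2.06 ± 0.57, adjusted p = 0.0210) and Retnlg (-3.65 ± 1.09, adjusted p = 0.0319) without stimulation, and Ly6g (-1.73 ± 0.50, adjusted p = 0.00900), Retnlg (-2.63 ± 0.77, adjusted p = 0.0104) and Cxcr2 (-2.21 ± 0.83, adjusted p = 0.0369) after LPS with DMSO. Retnlg did not exceed 0.460 CPM in any library, and Cxcr2 was at 0.194, 0.610 and 6.24 CPM in IRF5 KO LPS DMSO, where replicate 3 stood out, and at 0.394 to 0.661 CPM in WT LPS DMSO. The macrophage markers summed to 9785 to 10129 CPM in WT unstimulated and 10297 to 14649.9 CPM in IRF5 KO unstimulated. Among other marker lists, mast cell and basophil markers summed to 7.89 to 15.5 CPM in WT and 42.7 to 72.4 CPM in IRF5 KO, mostly through Gata2 and Kit, and Adgre1, the macrophage antigen F4/80, was at 70.3 to 343 CPM in WT and 291 to 671 CPM in IRF5 KO. Their part in the genotype differences was not tested. Of the marker genes, Ccr7, Mertk, Cpa3, Pdgfra and Pdgfrb were called with both LPS and defactinib in WT. Dendritic cell markers summed to 2306 to 2936 CPM in WT and 1930.3 to 2702 CPM in IRF5 KO, mostly through Itgax, and the fibroblast list did not exceed 2.09 CPM outside WT LPS defactinib replicate 3, where it reached 7.55 CPM.

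**Figure D2:**
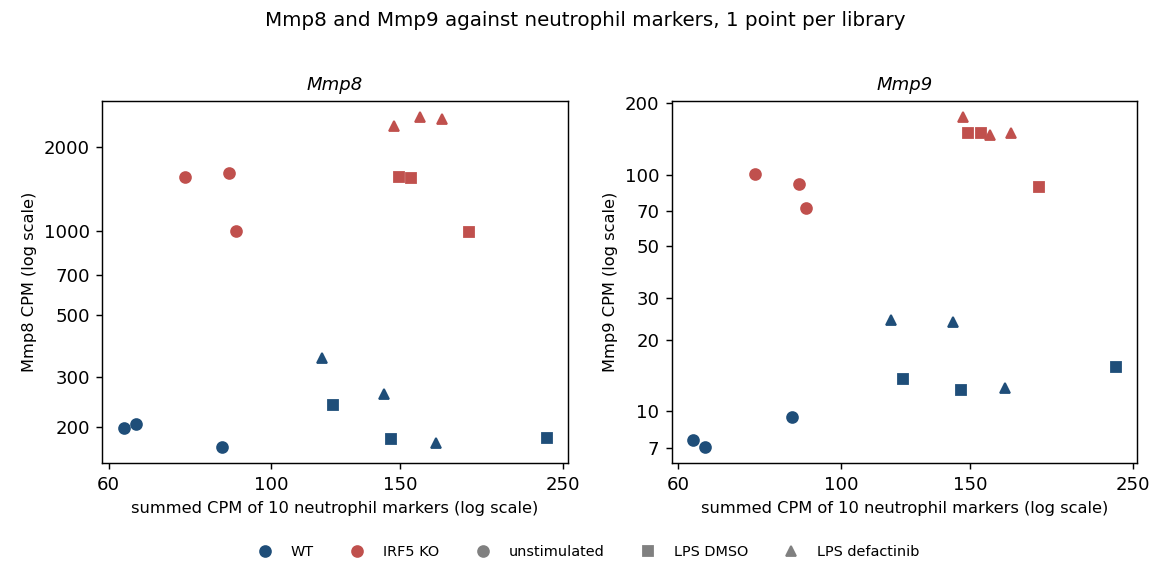
Mmp8 (left) and Mmp9 (right) in CPM against the summed CPM of 10 neutrophil markers, both on log axes, 1 point per library, with WT in blue, IRF5 KO in red and the treatment as the symbol. The IRF5 KO libraries lie above the WT libraries over overlapping ranges of marker sums, 62.9 to 237 CPM in WT and 76.3 to 186 CPM in IRF5 KO.

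Timp1, a secreted inhibitor of most metalloproteinases, went the other way. It was at 32.8, 31.4 and 37.4 CPM in WT unstimulated and at 13.3, 12.1 and 13.6 CPM in IRF5 KO unstimulated, a difference of 1.38 ± 0.18 (adjusted p = 7.04e-05). With LPS and DMSO it was at 140.3, 89.6 and 84.2 CPM in WT and at 19.9, 21.6 and 26.1 CPM in IRF5 KO. The WT libraries were all higher, and the difference widened to 2.22 ± 0.19 (adjusted p = 3.50e-07), 4.65-fold. After LPS with defactinib Timp1 was at 144, 97.8 and 109 CPM in WT and at 21.2, 19.9 and 19.3 CPM in IRF5 KO, a difference of 2.54 ± 0.19 (adjusted p = 6.31e-08).

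Timp2, which inhibits MMPs and also takes part in the activation of pro-MMP2 by MMP14, was at 58.0, 58.6 and 53.7 CPM in WT unstimulated and at 27.6, 21.8 and 28.3 CPM in IRF5 KO unstimulated. The groups were apart, with a difference of 1.13 ± 0.14 (adjusted p = 5.38e-05). After LPS with DMSO it was at 36.6, 38.4 and 42.9 CPM in WT and at 21.4, 19.9 and 17.5 CPM in IRF5 KO, a difference of 1.01 ± 0.15 (adjusted p = 4.94e-05). This lies at the 2-fold threshold, and Timp2 was called in 9 of the 18 fits that left out 1 library. It was not called without replicate 3 of WT LPS DMSO or of IRF5 KO LPS DMSO (0.93 in each), without IRF5 KO LPS DMSO replicate 2 (1.00) or without any 1 of the 6 LPS defactinib libraries (0.99). With LPS and defactinib it was at 52.1, 67.9 and 43.3 CPM in WT and at 27.9, 29.7 and 27.2 CPM in IRF5 KO. That difference, 0.94 ± 0.14 (adjusted p = 0.000102), fell just short of 2-fold and reached 1.11 without WT LPS defactinib replicate 3.

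Of the other members, the membrane-anchored collagenase Mmp14 passed the test between the genotypes after LPS with DMSO and in neither of the other 2 treatments in the fit of all libraries. It was at 711, 669.5 and 634 CPM in WT and at 229, 235 and 404 CPM in IRF5 KO, where replicate 3 was the highest. The difference was 1.22 ± 0.20 (adjusted p = 0.000131), and 1.53 without that replicate. It was 0.94, and not called, when libraries were scaled by their size alone, as was Timp2 (0.76). With defactinib it was at 343, 348 and 478 CPM in WT and 288, 317 and 277 CPM in IRF5 KO (0.41 ± 0.19, adjusted p = 0.114), and the difference was 0.40 (adjusted p = 0.0159), still under 2-fold, in the fit without IRF5 KO LPS DMSO replicate 3. Mmp19, a secreted protease that degrades basement membrane components, was called after LPS with defactinib, where it was at 70.4, 71.9 and 43.9 CPM in WT and 138, 136 and 139 CPM in IRF5 KO. Its difference was -1.15 ± 0.18 (adjusted p = 0.000124), and -0.93, under the 2-fold threshold, without WT LPS defactinib replicate 3. After LPS with DMSO the Mmp19 difference was -0.65 ± 0.18 (adjusted p = 0.00694), smaller than 2-fold.

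Mmp12 differed by less than 2-fold. It was at 14892, 14551 and 15309.8 CPM in WT unstimulated and at 12077, 8815 and 11440.4 CPM in IRF5 KO unstimulated (0.47 ± 0.13, adjusted p = 0.0246), where replicate 2 was the lowest. Without that replicate the difference was 0.34 (adjusted p = 0.129), and it passed in 14 of the 18 fits that left out 1 library. After LPS with DMSO it was at 17173, 13948 and 16921 CPM in WT and at 10624, 10849 and 9529.6 CPM in IRF5 KO (0.63 ± 0.13, adjusted p = 0.00114), or 0.38 with libraries scaled by their size alone. The genotypes did not overlap in either treatment, but did after LPS with defactinib, with 18069.8, 13324 and 13514 CPM in WT and 15083, 13905 and 14934 CPM in IRF5 KO. Mmp13, collagenase 3, was at 77.0, 75.7 and 70.7 CPM in WT unstimulated and 113, 92.2 and 108 CPM in IRF5 KO unstimulated (-0.49 ± 0.11, adjusted p = 0.00702). Its genotype comparisons after LPS did not pass the test.

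The next question was what LPS alone changed within 2 h. Mmp13 and Timp1 rose and Mmp19 fell in WT cells, and Mmp13 rose in IRF5 KO cells. These were 3 of 8 members called in WT, where 21.3% of tested genes were called, and 1 of 8 in IRF5 KO, where 13.3% were. The median log2 fold change of the members was 0.35 in WT and -0.04 in IRF5 KO, where that of all tested genes was -0.0045 and 0.0063. This and the genotype comparisons share libraries, so their values are set side by side and are not independent.

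Mmp13 rose from 77.0, 75.7 and 70.7 CPM to 283, 249 and 224 CPM in WT, where every LPS library exceeded every unstimulated one. The change was 1.76 ± 0.11 (adjusted p = 1.86e-08), or 3.39-fold. In IRF5 KO it rose from 113, 92.2 and 108 CPM to 231, 237 and 230.0 CPM (1.16 ± 0.11, adjusted p = 9.41e-06), or 2.23-fold. With libraries scaled by their size alone that change was 0.92, under 2-fold, so that Mmp13 was not called. Its LPS values in the genotypes overlapped, and the starting value was higher in IRF5 KO. Of the 6 members with a listed window, Mmp13 was the only one with both an AP-1 and an IRF match, and Timp1 held neither. Whether the matches bear on the LPS changes was not tested.

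Timp1 rose from 32.8, 31.4 and 37.4 CPM to 140.3, 89.6 and 84.2 CPM in WT (1.63 ± 0.18, adjusted p = 3.58e-06), with replicate 1 the highest. In IRF5 KO it went from 13.3, 12.1 and 13.6 CPM to 19.9, 21.6 and 26.1 CPM, without overlap. That change, 0.79 ± 0.18 (adjusted p = 0.00528), was under 2-fold. Mmp19 fell from 155, 149 and 125 CPM to 55.2, 53.0 and 47.6 CPM in WT (-1.46 ± 0.18, adjusted p = 9.96e-06). In IRF5 KO it went from 178, 115 and 169.7 CPM to 74.6, 79.1 and 90.6 CPM, a change of -0.92 ± 0.18 (adjusted p = 0.00247). It passed 2-fold there without IRF5 KO unstimulated replicate 2 (-1.10) or IRF5 KO LPS DMSO replicate 3 (-1.01).

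Changes under 2-fold with an adjusted p under 0.05 were seen in WT for Mmp9 (0.78 ± 0.24, adjusted p = 0.0165), Mmp14 (0.59 ± 0.19, adjusted p = 0.0225) and Timp2 (-0.53 ± 0.14, adjusted p = 0.00701). Of the 18 fits that left out 1 library, Mmp9 passed in 15, Mmp14 in 13 and Timp2 in 18. With libraries scaled by their size alone Mmp9 (0.40) and Mmp14 (0.21) did not pass, and Timp2 was at -0.91. In IRF5 KO the Timp2 change was -0.40 ± 0.14 (adjusted p = 0.0383), and -0.33 (adjusted p = 0.0665) without replicate 3 of IRF5 KO LPS DMSO, and it passed in 6 of those 18 fits. Mmp9 gave 0.56 ± 0.23 (adjusted p = 0.0679), and 0.78 (adjusted p = 0.00541) without replicate 3 of IRF5 KO LPS DMSO. For Mmp14 the 3 LPS libraries of IRF5 KO disagreed, with 229 and 235 CPM below and 404 CPM within the 293 to 429 CPM of unstimulated cells. The Mmp14 change was -0.36 ± 0.19 (adjusted p = 0.150), and -0.68 (adjusted p = 0.000774) without replicate 3. Mmp8 and Mmp12 did not pass in either genotype. Of the 9 tested neutrophil markers 6 rose and 1 fell with LPS in WT and 3 rose in IRF5 KO, and their part in the Mmp9 changes was not tested.

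LPS-treated cells with and without defactinib were compared next. No member was called in either genotype, where 29.1% of tested genes were called in WT and 0.919% in IRF5 KO. By adjusted p alone 2 members passed in WT, Mmp14 lower and Timp2 higher, beside 57.0% of genes, and 1 in IRF5 KO, Mmp19 higher, beside 3.36%. At an unadjusted p under 0.05 there were 3 in WT, with Mmp9, and 4 in IRF5 KO, with Mmp8, Mmp12 and Timp2. DESeq2 called 0 in each as well. With libraries scaled by their size alone, Mmp8 (0.59, adjusted p = 0.0310), Mmp9 (0.76, adjusted p = 0.00810) and Mmp19 (0.46, adjusted p = 0.0473) also passed in WT, all under 2-fold.

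Mmp14 went from 711, 669.5 and 634 CPM with DMSO to 343, 348 and 478 CPM with defactinib in WT. The groups did not overlap, and the defactinib values lay around the 432 to 459 CPM of unstimulated WT cells. The change was -0.79 ± 0.19 (adjusted p = 0.00296). In IRF5 KO Mmp14 was at 229, 235 and 404 CPM with DMSO and 288, 317 and 277 CPM with defactinib, which overlapped. Timp2 went from 36.6, 38.4 and 42.9 CPM to 52.1, 67.9 and 43.3 CPM in WT, where replicate 3 of defactinib was next to the DMSO values. Its change was 0.47 ± 0.14 (adjusted p = 0.0111) in WT and 0.53 ± 0.14 (adjusted p = 0.0537) in IRF5 KO. Without WT LPS defactinib replicate 2, the highest library, the WT change was 0.28 (adjusted p = 0.0688).

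Mmp19 rose in IRF5 KO from 74.6, 79.1 and 90.6 CPM to 138, 136 and 139 CPM (0.76 ± 0.18, adjusted p = 0.0357), close to the 115 to 178 CPM of unstimulated cells. It passed in 9 of the 18 fits that left out 1 library, with an adjusted p of 0.0108 to 0.131, and did not pass with libraries scaled by their size alone (0.62, adjusted p = 0.0688). In WT it was at 55.2, 53.0 and 47.6 CPM with DMSO and 70.4, 71.9 and 43.9 CPM with defactinib (0.26 ± 0.18, adjusted p = 0.224). In IRF5 KO Mmp8 was at 1549, 1568 and 992 CPM with DMSO and at 2563, 2391 and 2526 CPM with defactinib. Its change, 0.86 ± 0.24, missed the threshold (adjusted p = 0.0552). So did that of Mmp12 in IRF5 KO (0.50 ± 0.13, adjusted p = 0.0509), which went from 10624, 10849 and 9529.6 CPM to 15083, 13905 and 14934 CPM without overlap. WT LPS defactinib replicate 3 is not part of this comparison. Leaving it out gave an adjusted p of 0.0262 for Mmp8, 0.0364 for Mmp12 and 0.0314 for Timp2 in IRF5 KO. Dropping instead the library that stood apart among the IRF5 KO cells given LPS and DMSO, replicate 3, gave 0.106, 0.0567 and 0.0726. These genes passed in 5, 6 and 3 of the 18 fits that left out 1 library, with an adjusted p up to 0.168, 0.161 and 0.167. The summed macrophage markers, mostly Lyz2, also went from 9607 to 12319 CPM with DMSO to 17949.7 to 18878 CPM with defactinib in IRF5 KO, without overlap, and from 9376 to 9876 CPM to 10736 to 15170 CPM in WT. Their part in the defactinib changes of the members was not tested.

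Replicate 3 of WT LPS defactinib lay nearest to the DMSO libraries for Mmp8, Mmp9, Mmp14, Mmp19 and Timp2. Without it the WT defactinib changes were 0.63 for Mmp8 (adjusted p = 0.0222), 0.83 for Mmp9 (adjusted p = 0.00313), -0.94 for Mmp14 (adjusted p = 0.00149), 0.48 for Mmp19 (adjusted p = 0.0155) and 0.63 for Timp2 (adjusted p = 0.00140), all under 2-fold. With it they were 0.39 for Mmp8 (adjusted p = 0.168) and 0.56 for Mmp9 (adjusted p = 0.0579). Without replicate 2 of the same group instead, Mmp9 was at 0.42 (adjusted p = 0.194) and Mmp19 at 0.14 (adjusted p = 0.556). Of the 18 fits that left out 1 library, Mmp8 and Mmp19 each passed in 1, Mmp9 in 4, Timp2 in 17 and Mmp14 in 18. Mmp13 and Timp1, the members that LPS raised in WT, kept overlapping values with and without defactinib in WT, 224 to 283 against 197 to 267 CPM and 84.2 to 140.3 against 97.8 to 144 CPM.

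**Figure D3:**
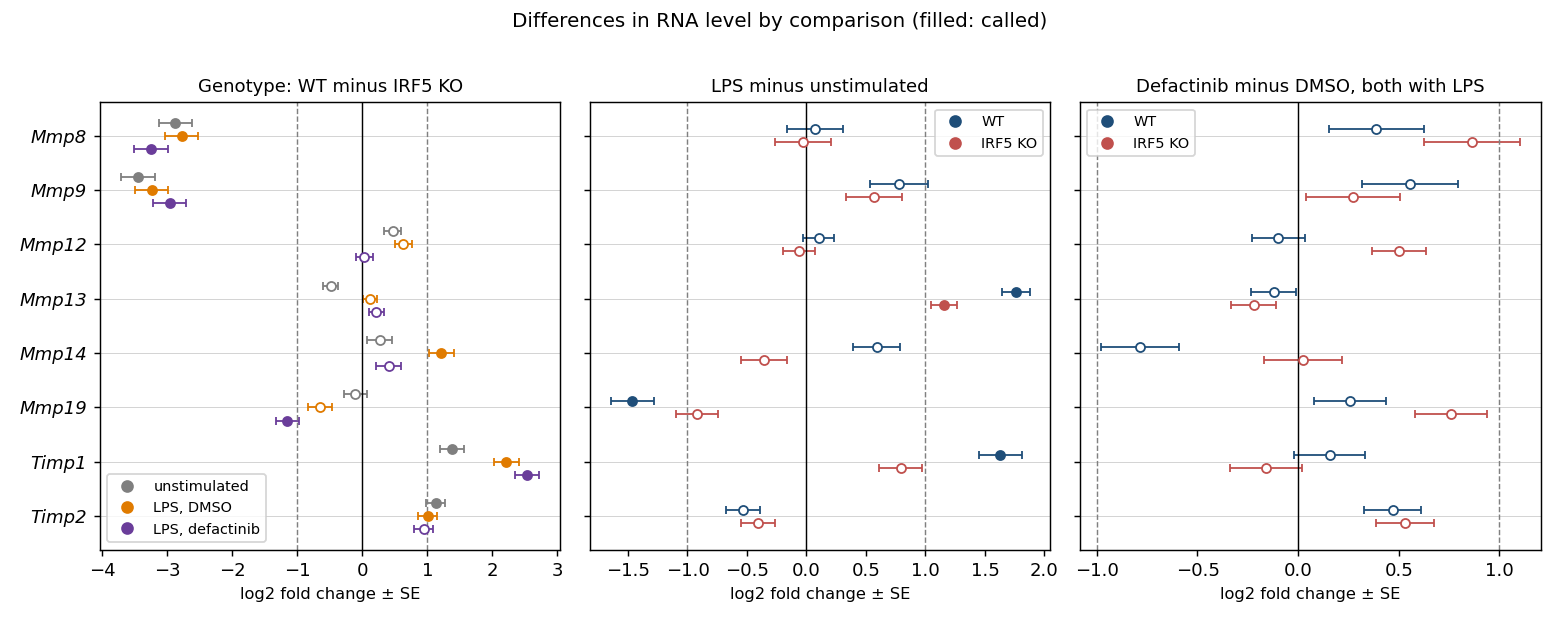
Log2 fold change with its SE for each of the 8 genes, by genotype within a treatment (left, WT minus IRF5 KO), by LPS (middle) and by defactinib in LPS-treated cells (right). Filled points are called, dashed lines mark 2-fold, and the filled points number 13 on the left, 4 in the middle and 0 on the right.

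Against unstimulated cells, LPS with defactinib left 4 members called in WT, where 24.9% of genes were called, and 0 in IRF5 KO, where 24% were. In WT Mmp9 (1.33 ± 0.24, adjusted p = 0.000429), Mmp13 (1.64 ± 0.11, adjusted p = 8.44e-08) and Timp1 (1.79 ± 0.18, adjusted p = 3.13e-06) were higher and Mmp19 (-1.20 ± 0.18, adjusted p = 8.59e-05) was lower. Mmp19 was at -0.99, and no longer called, without WT LPS defactinib replicate 3. In IRF5 KO 5 members passed by adjusted p alone, all higher and under 2-fold, namely Mmp8 (0.84 ± 0.24, adjusted p = 0.00794), Mmp9 (0.84 ± 0.23, adjusted p = 0.00748), Mmp12 (0.44 ± 0.13, adjusted p = 0.0113), Mmp13 (0.94 ± 0.11, adjusted p = 2.98e-05) and Timp1 (0.63 ± 0.18, adjusted p = 0.00826). Mmp12 was at 0.31 (adjusted p = 0.0634) without IRF5 KO unstimulated replicate 2. With libraries scaled by their size alone Mmp13 alone of the 5 passed. DESeq2 called 0 there as well.

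Whether the genotypes responded differently was tested as an interaction. For LPS no member was called, where 9.83% of genes were, and 3 passed by adjusted p alone, beside 17.1% of genes. The rise of Mmp13 was larger in WT by 0.60 ± 0.16 (adjusted p = 0.0173), the change of Timp1 by 0.84 ± 0.25 (adjusted p = 0.0334), and that of Mmp14 by 0.95 ± 0.27 (adjusted p = 0.0274). Of the 18 fits that left out 1 library, Mmp13 passed in 16, Timp1 in 11 and Mmp14 in 9. With libraries scaled by their size alone Mmp13 (0.46, adjusted p = 0.0439) still passed, and Mmp14 (0.77, adjusted p = 0.0780) and Timp1 (0.68, adjusted p = 0.0823) did not. For Mmp14 the interaction was 1.27 (adjusted p = 5.57e-05), and called, without IRF5 KO LPS DMSO replicate 3, and 1.09 (adjusted p = 0.0191), and called, without IRF5 KO unstimulated replicate 2. The Mmp19 interaction was -0.54 ± 0.25 (adjusted p = 0.146), which did not show that its fall differed between the genotypes. For defactinib 0 members were called, where 22.8% of genes were, and 2 passed by adjusted p alone, beside 37.0%. These were Mmp12 (-0.60 ± 0.19, adjusted p = 0.0203) and Mmp14 (-0.81 ± 0.27, adjusted p = 0.0297), both with the lower defactinib change in WT, and they passed in 16 and 9 of those 18 fits. Neither passed under the library size scaling, at -0.28 (adjusted p = 0.191) and -0.46 (adjusted p = 0.227). Mmp14 was at -1.13 (adjusted p = 0.000116), and called, without IRF5 KO LPS DMSO replicate 3. At an unadjusted p under 0.05 there were 4 members for LPS, with Mmp19, and 2 for defactinib, and DESeq2 called 0 in each.

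Of 19 other MMP and TIMP genes, 6 passed the filter on low counts, and the most abundant were Mmp25, Mmp2 and Mmp23. Mmp25, a GPI-anchored metalloproteinase known from leukocytes, rose with LPS in both genotypes. It was at 28.7, 32.7 and 33.7 CPM in WT unstimulated, 242, 336 and 289 CPM in WT LPS DMSO and 75.0, 74.9 and 163 CPM in WT LPS defactinib. The LPS change was 3.19 ± 0.29 (adjusted p = 5.23e-07) and the defactinib change -1.47 ± 0.27 (adjusted p = 0.000315), or -1.93 without WT LPS defactinib replicate 3. In IRF5 KO it was at 20.9 and 30.6 CPM in unstimulated replicates 1 and 2, with replicate 3 just below replicate 1, and at 57.8, 57.2 and 86.2 CPM after LPS (1.49 ± 0.27, adjusted p = 0.00187), and the interaction of LPS with genotype was 1.69 (adjusted p = 0.00754).

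Mmp2, gelatinase A, was higher in IRF5 KO. It was at 15.1, 16.2 and 17.3 CPM in WT unstimulated and 60.2, 46.8 and 60.9 CPM in IRF5 KO unstimulated (-1.79 ± 0.14, adjusted p = 3.93e-07), and the difference after LPS with DMSO was -1.14 ± 0.14 (adjusted p = 9.21e-06). Mmp23 was at 4.89, 7.04 and 7.27 CPM in WT LPS DMSO and 18.1, 24.01 and 7.48 CPM in WT LPS defactinib (1.37 ± 0.39, adjusted p = 0.00788). It was 1.74 without replicate 3 of defactinib and 1.00 (adjusted p = 0.0528), and not called, without replicate 2. Of the 6 genes, 1 was called with LPS in WT, 1 with LPS in IRF5 KO, 4 with defactinib in WT (1 higher, 3 lower), 2 by genotype without stimulation and 3 by genotype after LPS with DMSO. The shares over all tested genes were 21.3%, 13.3%, 29.1%, 7.31% and 25.8% in the same order.

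Of 17 genes that activate, dock or clear metalloproteinases, or inhibit their activators, 16 were tested. With LPS in WT 8 rose and 1 fell, with a median log2 fold change over the 16 of 0.72, and with LPS in IRF5 KO 4 rose and 1 fell (median 0.43), where the medians over all tested genes were those given above. With defactinib in WT 7 fell and 0 rose (median -0.31, beside 0.09 over all tested genes), and with defactinib in IRF5 KO 1 rose. The shares of all tested genes called were 21.3% and 13.3% with LPS in WT and IRF5 KO, and 29.1% and 0.919% with defactinib, where 2916 genes were lower and 1636 higher in WT. Furin, Cd44, Itgav, Thbs1, Serpinb2 and Plat were among both the genes that fell with defactinib in WT and those that rose with LPS. The WT LPS DMSO libraries enter both comparisons, so the overlap is not independent evidence. Between the genotypes without stimulation, 1 of the 16 was called higher in WT and 3 lower, beside 7.31% of all tested genes called. After LPS with DMSO 5 were higher in WT and 2 lower, beside 25.8%. After LPS with defactinib 2 were higher and 5 lower, beside 17.3%.

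Furin, a proprotein convertase that removes the propeptide of MMP14, was at 231, 241 and 253 CPM in WT unstimulated, 548, 684 and 725 CPM in WT LPS DMSO and 63.0, 75.3 and 72.4 CPM in WT LPS defactinib. It rose by 1.43 ± 0.23 with LPS (adjusted p = 9.82e-05) and was -3.22 ± 0.24 with defactinib (adjusted p = 6.20e-08), which took it below the unstimulated level. In IRF5 KO Furin was at 74.7, 77.2 and 81.3 CPM unstimulated and 78.9, 77.4 and 169.7 CPM after LPS, again with replicate 3 apart. The genotype difference was 1.64 ± 0.23 (adjusted p = 0.000119) without stimulation and 2.59 ± 0.23 (adjusted p = 7.82e-07) after LPS, or 3.06 without that replicate.

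Cd44, the hyaluronan receptor to which MMP9 and MMP14 dock, was at 518, 503 and 499 CPM in WT unstimulated, 991, 1064 and 1109.7 CPM after LPS and 524, 434 and 469 CPM with defactinib. Its changes were 1.06 ± 0.14 (adjusted p = 2.36e-05) and -1.15 ± 0.14 (adjusted p = 9.29e-06). With libraries scaled by their size alone they were 0.68 and -0.95, both under 2-fold and not called. Itgav, the integrin αv chain, was at 67.3, 66.6 and 70.6 CPM, then 321, 357 and 358 CPM, then 79.2, 53.2 and 94.2 CPM, with changes of 2.34 ± 0.15 (adjusted p = 1.06e-08) and -2.19 ± 0.14 (adjusted p = 1.69e-08). Thbs1, thrombospondin 1, changed by 1.99 ± 0.25 (adjusted p = 1.09e-05) and -1.23 ± 0.24 (adjusted p = 0.000524), the latter -0.98 and not called without WT LPS defactinib replicate 2. Serpinb2, an inhibitor of plasminogen activators, changed by 4.44 ± 0.51 (adjusted p = 5.78e-06) and -2.85 ± 0.47 (adjusted p = 0.000141), the latter -3.66 (adjusted p = 1.00e-05) without WT LPS defactinib replicate 3. Unlike Furin, Thbs1 (-2.48 ± 0.25, adjusted p = 6.07e-06) and Serpinb2 (-3.11 ± 0.48, adjusted p = 0.000353) were higher in IRF5 KO than in WT without stimulation. So was Reck (-1.02 ± 0.26, adjusted p = 0.0140). After LPS with DMSO the difference was -1.16 ± 0.24 for Thbs1 (adjusted p = 0.00104), and Serpinb2 did not pass (-0.17 ± 0.44). Plaur and Cd63, the other abundant genes of the list, were called with neither treatment in WT. Lcn2, a partner of MMP9 in complexes, was at 204 CPM in WT LPS defactinib replicate 3 and at 12.3 to 13.3 CPM in replicates 1 and 2, beside 28.8 to 37.5 CPM in WT LPS DMSO.

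**Figure D4:**
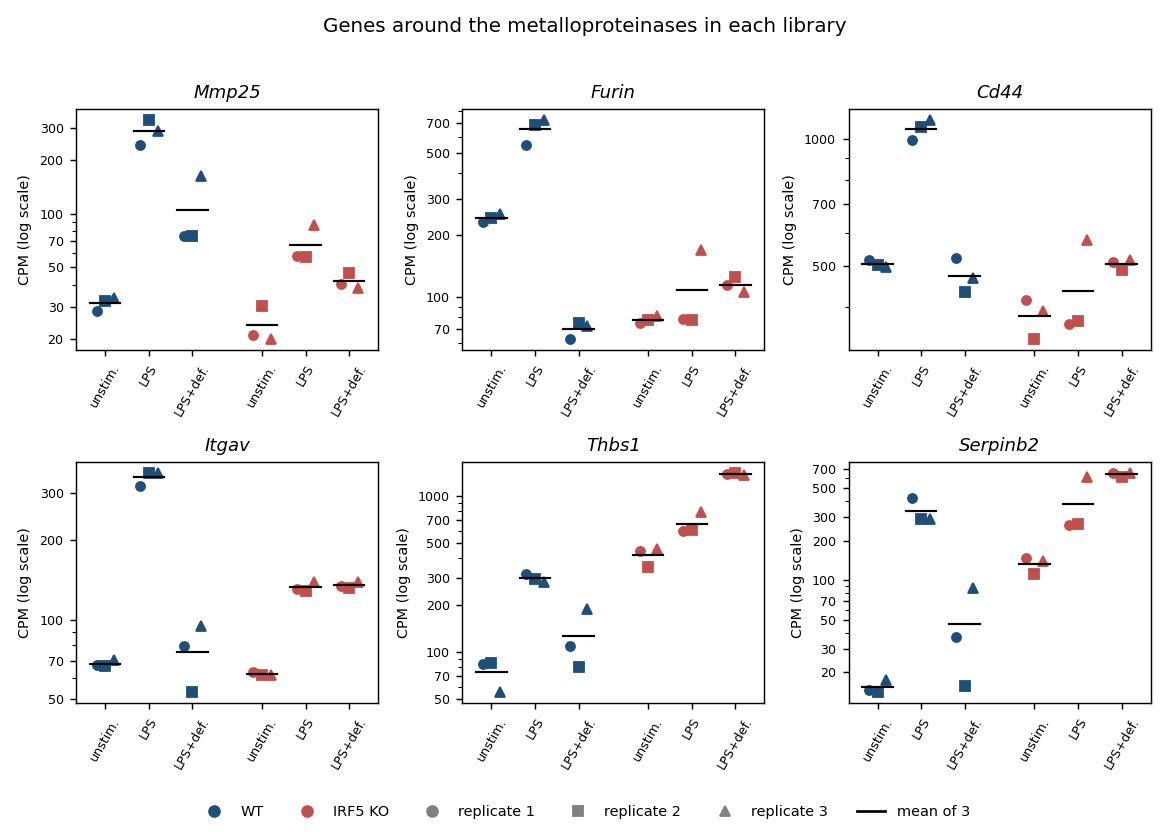
CPM (log axis) of Mmp25 and of 5 genes that activate or dock metalloproteinases or inhibit their activators, in every library, with WT in blue, IRF5 KO in red, the replicate number as the symbol and the group mean of 3 as a bar. In WT all 6 are higher with LPS and lower again with defactinib, though Cd44 was called with neither when libraries were scaled by their size alone, while Thbs1 and Serpinb2 lie higher in every IRF5 KO LPS defactinib library than in any WT library.

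Of 13 ADAM and ADAMTS genes, the related membrane-bound and matrix proteases, 10 were tested. The most abundant, Adam8, Adam17 and Adam9, were not called with LPS or defactinib in WT. With LPS in WT 3 of the list rose, and with defactinib in WT 2 fell and 1 rose, so 3 of 10 were called in each, beside the 21.3% and 29.1% of all tested genes. Adamts1 and Adamts4 were in both groups, at no more than 1.5 and 4.45 CPM in WT LPS DMSO and at most 0.116 and 0.209 CPM in WT LPS defactinib.

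Over the 18 libraries, log2 CPM of Mmp8 and Mmp9 had a Pearson r of 0.97 with each other. The 8451 tested genes whose log2 CPM averaged 3 or higher were compared, and those most like Mmp8 were Slc39a4 (r = 0.99), Emb (0.99) and Rcbtb2 (0.98), and those most like Mmp9 were Sorl1 (0.98), Slc39a4 (0.97) and Hp (0.97). The genes most like Mmp12 were Sgpl1 (0.93), Hgsnat (0.91) and Pttg1ip (0.88), and most like Mmp13 were Emd (0.96), Serpinb6b (0.95) and Mthfd2 (0.94). Mmp14 was most like Smap1 (0.97), Mxi1 (0.97) and Arl8a (0.96), and Mmp19 most like Panx1 (0.96), Nifk (0.94) and Tmx4 (0.93). Timp1 was most like Pdzk1ip1 (0.97), Serpinb9b (0.97) and Ggct (0.96), and Timp2 most like Cracr2b (0.98), Atp6v0d2 (0.97) and Steap3 (0.97). These are descriptions over libraries that share genotype and treatment.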

How the data were processed

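The authors aligned paired-end reads with STAR to mm10, counted uniquely mapped pairs over exons by strand with featureCounts 1.6.3 and deposited whole counts per gene. Symbols came from a gene name table, which matched 50376 of 50600 identifiers. Counts were tested with edgeR 4.0.16 in R 4.3.3 (TMM scaling, filterByExpr over the 6 groups, 15663 genes, 1 fit of all 18 libraries, quasi-likelihood F test, Benjamini-Hochberg adjustment), and both edgeR and DESeq2 1.42.0 were tested on simulated counts. The authors used DESeq2, here an alternative. A call needed an adjusted p under 0.05 and a change over 2-fold. SE is the log2 fold change over the square root of F. CPM and RPKM were computed here from the counts with TMM library sizes.

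Members and gene lists were chosen with earlier results of these data known. Of other lists, the 3 most abundant tested genes and those called with both LPS and defactinib in WT were named, except some that are not reported here, with Lcn2, Adgre1, Gata2, Kit, Dcn, Lum, Ly6g, Retnlg, Cxcr2, Mpo and Elane added after their values were seen. For likeness, log2 CPM had a prior count of 2. Groups and replicates came from the sample labels. Alternatives were other scalings, filters, tools, a replicate block, only the groups compared, no fold threshold and each library left out. Same-numbered libraries were checked for shared deviations (median r 0.0046 over 45 pairs, 4 above 0.1) and were not treated as pairs. No libraries of a group agreed within sampling noise.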

Additional observations from a re-analysis of the deposited data

Results flagged for a closer look

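Differences between WT and IRF5 KO in the response of a member passed an adjusted p of 0.05 in 5 cases, by the test of the difference itself (edgeR interaction). For the LPS response the values on the log2 scale, WT minus IRF5 KO, were 0.60 for Mmp13, 0.95 for Mmp14 and 0.84 for Timp1, with adjusted p of 0.0173, 0.0274 and 0.0334. For the defactinib response they were -0.60 for Mmp12 and -0.81 for Mmp14, with adjusted p of 0.0203 and 0.0297. All 5 were under 2-fold. Over the fits that left out 1 library the adjusted p ranged up to 0.0521 for Mmp13, 0.0781 and 0.0897 for Mmp14 with LPS and defactinib, 0.0839 for Timp1 and 0.0525 for Mmp12. With libraries scaled by their size alone 4 of the 5 did not pass, namely Mmp14 (0.77) and Timp1 (0.68) for LPS and Mmp12 (-0.28) and Mmp14 (-0.46) for defactinib, while Mmp13 was at 0.46 (adjusted p = 0.0439).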

How the results depend on the processing

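No named change turned its direction under any alternative. Scaling by library size alone moved the median log2 fold change of all genes to -0.38 with LPS in WT, -0.23 with LPS in IRF5 KO, 0.29 and -0.17 with defactinib in WT and IRF5 KO, and -0.12, -0.30 and 0.10 for the genotype comparisons. Under it 3 members were called between the genotypes after LPS with DMSO, since Mmp14 gave 0.94 and Timp2 0.76, and with LPS in IRF5 KO Mmp13 gave 0.92, no longer called, and Mmp19 -1.14, called, and Timp2 gave 1.03, called, between the genotypes after LPS with defactinib. By adjusted p under it Mmp9 (0.40) and Mmp14 (0.21) no longer passed with LPS in WT, Mmp19 (0.62) with defactinib in IRF5 KO, Mmp8 (0.48), Mmp9 (0.48), Mmp12 (0.08) and Timp1 (0.27) with LPS plus defactinib in IRF5 KO, Mmp14 (0.77) and Timp1 (0.68) in the LPS interaction, and Mmp12 (-0.28) and Mmp14 (-0.46) in the defactinib interaction. The same scaling let Mmp8 (0.59), Mmp9 (0.76) and Mmp19 (0.46) pass with defactinib in WT, with adjusted p of 0.0310, 0.00810 and 0.0473. It also let Mmp14 pass with LPS in IRF5 KO (-0.56, adjusted p = 0.0471). For the other MMP and TIMP genes it gave 5 calls between the genotypes after LPS with DMSO. Without the fold threshold the called members numbered 6 and 4 with LPS in WT and IRF5 KO, 2 and 1 with defactinib, 5 with LPS plus defactinib in IRF5 KO, and 3 and 2 for the interactions, and the lists gave 2 other MMP and TIMP genes with LPS in WT and 8 activation genes with LPS in IRF5 KO. With no filter, or with only the groups compared, 2 other MMP and TIMP genes were called with LPS in WT, and with only the groups compared 3 activation genes with LPS in IRF5 KO. A filter of 5 CPM in 3 libraries left 2 and 1 of the other MMP and TIMP genes called with defactinib in WT and by genotype without stimulation, since fewer genes were tested. Timp2 between the genotypes after LPS with DMSO gave 0.99, 0.96 and 0.97 under no filter, the stricter filter and only the groups compared, and was not called. With only the groups compared, Mmp19, Timp1 and Timp2 with LPS in IRF5 KO (adjusted p of 0.0816, 0.0570 and 0.166), Mmp19 with defactinib in IRF5 KO (0.0756) and Mmp14 in the defactinib interaction (0.0798) did not pass. Cd44 gave 0.68 with LPS and -0.95 with defactinib in WT by library size alone.

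Leaving out 1 library at a time gave 1 to 2 members called with LPS in IRF5 KO, 0 to 1 for each interaction, and for the other MMP and TIMP genes 1 to 3 with LPS in IRF5 KO, 2 to 4 with defactinib in WT, 1 to 3 by genotype without stimulation and 3 to 5 after LPS with DMSO. Among single genes it gave Thbs1 and Mmp23 changes with defactinib in WT of -0.98 and 1.00 without WT LPS defactinib replicate 2, neither called. The replicate block gave 3, 1, 0, 0, 4, 5, 4, 4, 0, 0 and 0 called members in the 11 comparisons, the same counts as without it, and the libraries share only a number.

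The 3 libraries per group limit precision, and the lowest count of a member in any library was 377 (Mmp9). Counting error was not set against the spread between replicates member by member.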
